A study of Mus musculus with 4 samples.

Results

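The 10 genes described here encode tachykinin, bombesin-family, somatostatin and CART peptides of the spinal dorsal horn and the receptors that read them. They are the peptide genes Tac1, Tac2, Grp, Nmb, Sst and Cartpt and the receptor genes Tacr1, Tacr3, Grpr and Sstr2. They were chosen by gene name in the scanner files, which gave 11 probes of 55681 on the array, and all 10 were among the 29114 genes tested. The mice were adult ICR males of 8 weeks, an outbred stock, and lumbar cord was taken 10 days after surgery. In 2 mice the L5 spinal nerve had been tied tightly with silk (spinal nerve ligation, SNL), and in 2 sham mice the same nerve was exposed and left untied. The nerve is reached by removing the L6 transverse process under isoflurane. The protocol gives the tissue as segments L4 to L5 and the source field as L5, and neither names the side taken. Each mouse gave 1 RNA sample and 1 one-colour Agilent array. The question is how these transcripts differ between ligated and sham-operated mice in a standard model of neuropathic pain. The labels name cord segments and no separate dorsal horn, and in such bulk tissue a smaller number of cells of a type and less RNA per cell cannot be told apart.

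As background, small peptides set the gain of pain and itch relays in the superficial dorsal horn. Substance P, released by afferent fibres and local neurons, acts on the receptor NK1 of projection neurons, while neurokinin B acts on NK3 of excitatory interneurons. Gastrin-releasing peptide and its receptor form a relay that carries itch to the brain. Somatostatin marks a large group of excitatory interneurons and acts through inhibitory receptors, among them Sstr2. CART peptides are made by several groups of spinal neurons and by some afferents.

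All values below are log2 signals relative to the 75th percentile of the same array, and a difference is the SNL mean less the sham mean on that scale. Probes differ in brightness, so a level is compared between mice and not between genes. The share of spots well above background was 74.9% and 78.1% in SNL, against 82.1% and 81.9% in sham. Over the genes of an array, which are no replicates of each other, the SNL arrays correlated at r = 0.988, the sham arrays at 0.991 and arrays of different groups at 0.982 to 0.984. All arrays came from 1 slide and 1 scan. The file headers give the SNL arrays and the sham arrays different first numbers of position on that slide, so position and surgery cannot be told apart. The second number of position equals the replicate number in both groups. Genes of lumbar cord were present, and 9 of 9 Hox genes of lumbar level were measured, with a median difference of 0.028. Differences were 0.12, 0.18 and 0.19 for Hoxa9, Hoxc9 and Hoxd9, and 0.028, -0.093 and 0.13 for Hoxa10, Hoxc10 and Hoxd10. They were -0.14, -0.14 and -0.52 for Hoxa11, Hoxc11 and Hoxd11, whose other probe gave -0.21. Of the 9, only Hoxd11 had an unadjusted p under 0.05 in limma. A difference in cord level between the groups was not tested. Sham replicate 2 stood apart in myelin genes of Schwann cells and nerve roots: Prx was at 1.97 and 1.29 in SNL, against 1.78 and -3.85 in sham.

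None of the 10 genes passed the test over all genes, in which limma called 50 of 29114 at a Benjamini-Hochberg adjusted p under 0.05 (0.172%), 0.161% higher and 0.0103% lower. Without any 1 of the 4 mice, 0 genes were called. Before adjustment, 2 of the 10, Tacr1 and Cartpt, had p under 0.05, both with lower values in SNL. Among all genes 12.1% had such a p, with 6.67% higher and 5.48% lower in SNL. None of the 10 differed by at least 2-fold with such a p, against 2.63% of all genes, 1.91% higher and 0.714% lower. For 3 of the 10, Tacr1, Tacr3 and Cartpt, the SNL and sham values did not overlap, against 45.8% of all genes. Each of these 3 had its lower values in SNL, as did 20.9% of all genes, while 24.9% had higher values there. The median difference over the 10 genes was 0.056, beside 0.028 over all genes, with 6 values above 0 and 4 below, and it lay between -0.15 and 0.25 over the alternatives. The smallest p that an exact permutation test can give with 2 mice a group is 0.333, and no such test was run.

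**Figure D1:**
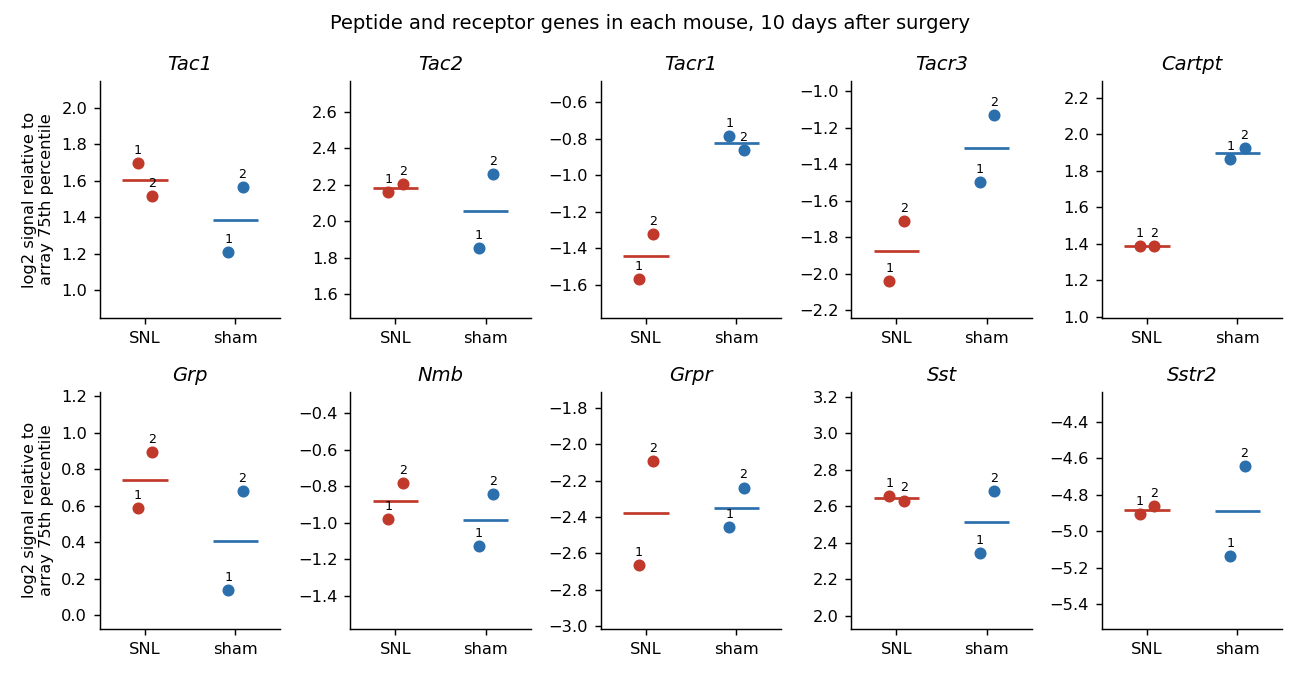
Log2 signal relative to the array's 75th percentile (y axis, the same span of values in every panel) for each of the 10 genes in the SNL mice (red) and the sham mice (blue), with points for mice, numbered by replicate, and lines for group means. The groups are separate for Tacr1, Tacr3 and Cartpt, with SNL lower, and overlap for the other 7 genes.

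The tachykinin peptide genes gave overlapping groups. Tac1, which encodes substance P and neurokinin A, was at 1.70 and 1.52 in the SNL mice, against 1.21 and 1.56 in the sham mice. Sham replicate 2 lay between the SNL mice, and sham replicate 1 lay below the other 3 mice. The difference was 0.22 ± 0.17 (SE, n = 2 per group; 95% interval -0.27 to 0.71; adjusted p = 0.671 in limma). It was 0.042 without sham replicate 1, 0.40 without sham replicate 2 and 0.41 with normexp background correction. Tac2, which encodes neurokinin B, was at 2.16 and 2.20 in SNL, against 1.85 and 2.26 in sham. The sham mice held both the lowest and the highest value. Its difference was 0.13 ± 0.17 (95% interval -0.38 to 0.63, adjusted p = 0.816), and it turned to -0.12 with that correction and to -0.077 without sham replicate 1. On mm9, the probe of Tac1 lies on chromosome 6 at 7512893 to 7512952 and that of Tac2 on chromosome 10 at 127168764 to 127168823.

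Both tachykinin receptor genes had lower values in SNL than in sham, and neither passed the test. Tacr1, the gene of the substance P receptor NK1, was at -1.57 and -1.32 in the SNL mice, against -0.78 and -0.86 in the sham mice. Both SNL mice lay below both sham mice, and the gap of 0.46 between the groups was wider than the 0.25 between the SNL mice and the 0.076 between the sham mice. The difference was -0.62 ± 0.13 (SE, n = 2 per group; 95% interval -0.999 to -0.246), a ratio of 0.650 of SNL to sham. Its unadjusted p was 0.011 and its adjusted p 0.255 in limma, and 4.32% of all genes had a smaller p.

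Tacr3, the gene of the neurokinin B receptor NK3, was at -2.04 and -1.71 in the SNL mice, against -1.50 and -1.13 in the sham mice. Again both SNL mice lay below both sham mice, but the gap of 0.21 was narrower than the spread within either group, 0.33 in SNL and 0.37 in sham. The difference was -0.56 ± 0.20 (95% interval -1.15 to 0.023, adjusted p = 0.429 in limma), a ratio of 0.678. With 1 mouse left out it lay between -0.75 and -0.38. The probe of Tacr1 lies on chromosome 6 at 82509613 to 82509672 and that of Tacr3 on chromosome 3 at 134596904 to 134596963, both on mm9. The third tachykinin receptor gene, Tacr2, was at 4.45 and 4.24 in SNL, against 3.90 and 4.30 in sham. Its difference was 0.25 ± 0.19 (adjusted p = 0.662 in limma), and its other probe gave 0.44.

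Cartpt, the precursor gene of the CART peptides, had the smallest p of the 10. It was at 1.39 and 1.39 in the SNL mice, against 1.86 and 1.93 in the sham mice. The SNL mice differed from each other by 0.00076 and the sham mice by 0.061, and a gap of 0.48 separated the groups. The difference was -0.51 ± 0.090 (SE, n = 2 per group; 95% interval -0.77 to -0.25), a ratio of 0.703. Its unadjusted p was 0.0064 and its adjusted p 0.209 in limma, and 3.08% of all genes had a smaller p. The adjusted p was 0.024 with a variance trend and robust estimation in limma, while the same setting left Tacr1 at 0.097 and Tacr3 at 0.254. With 1 mouse left out the difference lay between -0.54 and -0.48, and with normexp correction it was -0.37.

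The Cartpt probe is shown because it read the gene with the smallest p. It covers 60 bases of transcript that lie over 990 bases of mm9, chr13:100668967-100669956 on the minus strand, so its match to the genome is split.
Cartpt probe: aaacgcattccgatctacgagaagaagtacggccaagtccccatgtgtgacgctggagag
The other 9 genes were read by probes of the same length. That of Sstr2 also spans more genome than its length, 399 bases, and the others span as many bases as they hold. Where the probes lie among exons was not analysed here.

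**Figure D2:**
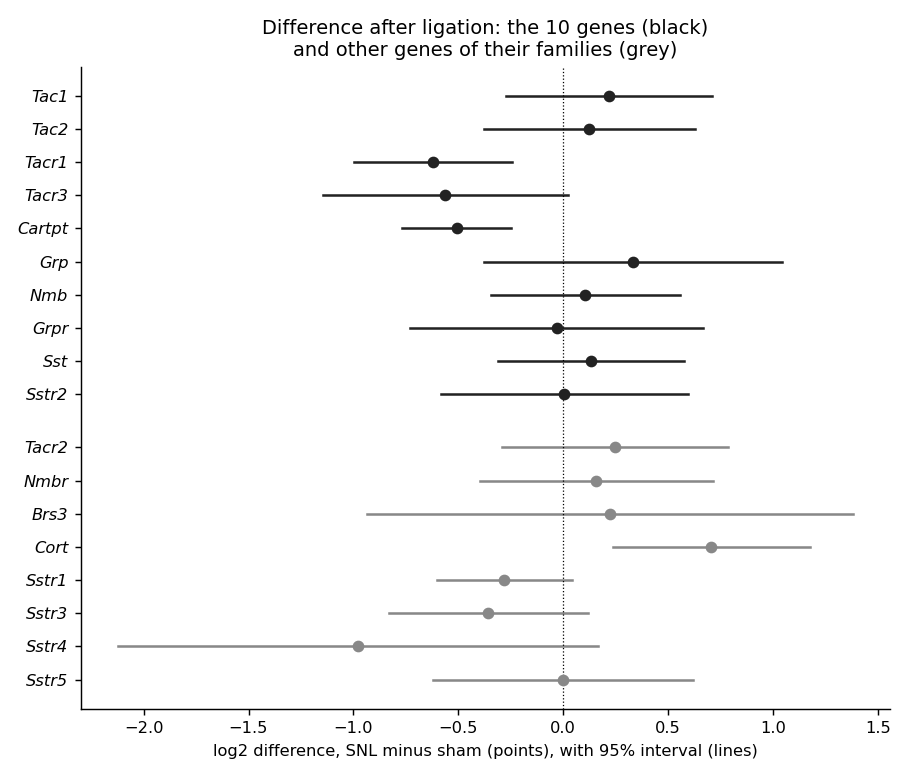
Difference between SNL and sham mice on the log2 scale (x axis, points) with its 95% interval from limma (lines) for the 10 genes (black) and for 8 further genes of the same families (grey). Among the 10, the intervals of Tacr1 and Cartpt lie below 0, that of Tacr3 reaches 0.023, and the other 7 span 0, of which Tac2 and Sstr2 turn below 0 with normexp correction.

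The bombesin-family genes of the itch relay gave overlapping groups. Grp, the gene of gastrin-releasing peptide, was at 0.59 and 0.89 in the SNL mice, against 0.14 and 0.68 in the sham mice. Sham replicate 2 lay between the SNL mice. The difference was 0.33 ± 0.25 (SE, n = 2 per group; 95% interval -0.38 to 1.04; adjusted p = 0.660), and with 1 mouse left out it lay between 0.060 and 0.60. Grpr, the gene of its receptor, was at -2.66 and -2.09 in SNL, against -2.46 and -2.24 in sham. Here the SNL mice held both the lowest and the highest value, and the difference was -0.031 ± 0.24 (95% interval -0.73 to 0.67, adjusted p = 0.972). As a ratio of SNL to sham the interval runs from 0.603 to 1.59, so these arrays do not show that the gene was unchanged. Its sign turned without SNL replicate 1, to 0.25, and without sham replicate 2, to 0.079.

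Nmb, the gene of neuromedin B, another peptide of the bombesin family, was read by a pair of overlapping probes. The brighter probe was at -0.98 and -0.78 in SNL, against -1.13 and -0.84 in sham, and the other at -1.10 and -0.84 in SNL, against -1.27 and -0.97 in sham. On both probes replicate 2 was the higher mouse of each group and the groups overlapped. The difference on the brighter probe was 0.11 ± 0.16 (95% interval -0.34 to 0.56, adjusted p = 0.828), and on the other probe 0.15 ± 0.18. Without sham replicate 1 it was -0.039. The further receptor genes Nmbr and Brs3 had differences of 0.16 ± 0.19 (adjusted p = 0.788 in limma) and 0.22 ± 0.40 (adjusted p = 0.860). The probe of Grp lies on mm9 chromosome 18 at 66046107 to 66046166, that of Grpr on chromosome X at 159952638 to 159952697, and the brighter one of Nmb on chromosome 7 at 88047120 to 88047179.

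Sst, the gene of somatostatin, was at 2.65 and 2.63 in the SNL mice, against 2.34 and 2.68 in the sham mice. The SNL mice differed by 0.023 and lay between the sham mice. The difference was 0.13 ± 0.15 (SE, n = 2 per group; 95% interval -0.31 to 0.57; adjusted p = 0.780), and it was -0.040 without sham replicate 1. The Sst probe is printed 10 times on each array, which shows the measuring error within an array. The SD between its 10 spots was 0.051 and 0.069 in SNL and 0.055 and 0.064 in sham. The 0.34 between the sham mice, a difference of means over 10 spots, was 4.94 to 6.72 times these SDs of single spots. Error between arrays is not part of these SDs.

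Sstr2, the gene of a somatostatin receptor, was at -4.90 and -4.86 in the SNL mice, against -5.13 and -4.64 in the sham mice. It was well above background on all 4 arrays, and the SNL mice lay between the sham mice. The difference was 0.0058 ± 0.20 (95% interval -0.58 to 0.59, adjusted p = 0.995), and it was below 0 in 5 of 13 other settings, at -0.21 with normexp correction and -0.10 with quantile normalization. As a ratio the interval runs from 0.669 to 1.51. The Sst probe lies on mm9 chromosome 16 at 23889776 to 23889835, and that of Sstr2 on chromosome 11 at 113486505 to 113486903.

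The other somatostatin receptor genes and the related peptide gene Cort did not pass either. Cort, the gene of cortistatin, which binds the same receptors, was at -2.28 and -2.01 in SNL, against -2.73 and -2.98 in sham, and both SNL mice lay above both sham mice. Its difference was 0.71 ± 0.16 (unadjusted p = 0.015, adjusted p = 0.278 in limma). Sstr1 was at -1.36 and -1.33 in SNL, against -1.15 and -0.97 in sham, with a difference of -0.28 ± 0.11 (adjusted p = 0.456). Differences were -0.36 ± 0.16 for Sstr3, -0.98 ± 0.40 for Sstr4 and -0.0024 ± 0.21 for Sstr5. Of the 9 further family genes 8 were tested, while Tac4 was too dim. Over the 8 the median difference was 0.078, with 0 called at adjusted p under 0.05 and 1, Cort, at unadjusted p under 0.05. That median rested on single mice: it was 0.19 without SNL replicate 1, -0.25 without SNL replicate 2 and -0.067 without sham replicate 1.

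**Figure D3:**
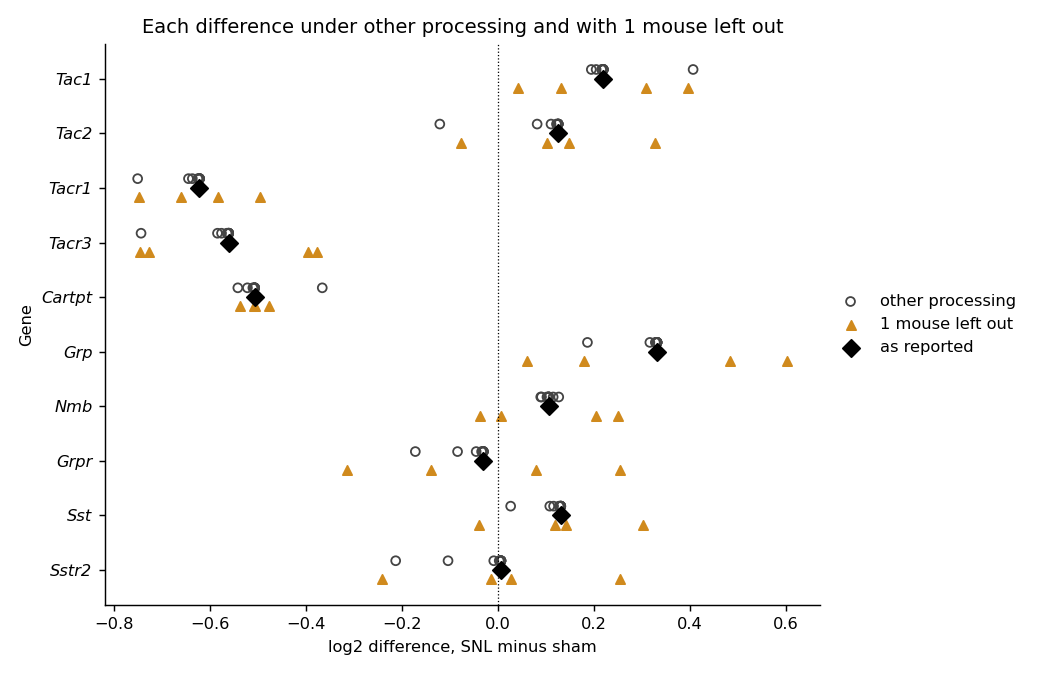
Difference between SNL and sham on the log2 scale (x axis) for each of the 10 genes as reported (diamonds), under 9 other ways of processing (open circles) and with 1 mouse left out (triangles). Tacr1, Tacr3 and Cartpt stay below 0 and Tac1 and Grp above 0 under all 13 alternatives, while Tac2, Nmb, Grpr, Sst and Sstr2 have values on both sides of 0.

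Sham replicate 1 was the lowest mouse for 6 of the 10 genes: Tac1, Tac2, Grp, Nmb, Sst and Sstr2. Over all genes it was the lowest mouse for 27.9%. Of 12 pan-neuronal genes 11 were tested, as no probe of Syt1 entered the fit, and 8 of the 11 had their lowest value in the same mouse. Their summed level, each signal in multiples of the array's 75th percentile, was 104 and 96.4 in SNL, against 85.3 and 91.4 in sham. All 11 were well above background in both groups. The part of neuronal content in the values of these 6 genes was not tested.

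Promoter sequence is shown for the 3 genes whose values were separate between the groups and for Sst, whose cyclic AMP response element (CRE) is the textbook example of this motif. RefSeq promoters of GRCm38.p6, from 250 bases before to 50 after the start site, were matched for 9 of the 10 genes. The palindromic CRE, TGACGTCA, was found in 3 of the 9: Cartpt, Sst and Sstr2, 112, 48 and 58 bases before the start site. Of 32851 promoters of the same length, 1.79% hold it. Its 5-base core, TGACG, searched on both strands, lies inside the full motif and occurs in 7 of the 9 promoters and in 20.8% of all. The AP-1 motif TGANTCA, on both strands, was in none of the 9 and in 7.81% of all. Capitals mark the full CRE or the core, and the strand given is that of the gene.
Tacr1, GRCm38.p6 chr6:82402225-82402524, plus strand: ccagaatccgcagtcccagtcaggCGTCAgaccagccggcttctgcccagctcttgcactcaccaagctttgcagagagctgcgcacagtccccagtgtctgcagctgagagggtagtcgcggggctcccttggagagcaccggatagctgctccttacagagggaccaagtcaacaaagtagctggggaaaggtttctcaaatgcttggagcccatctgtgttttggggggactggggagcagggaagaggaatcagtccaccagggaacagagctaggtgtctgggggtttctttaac
Tacr3, GRCm38.p6 chr3:134828757-134829056, plus strand: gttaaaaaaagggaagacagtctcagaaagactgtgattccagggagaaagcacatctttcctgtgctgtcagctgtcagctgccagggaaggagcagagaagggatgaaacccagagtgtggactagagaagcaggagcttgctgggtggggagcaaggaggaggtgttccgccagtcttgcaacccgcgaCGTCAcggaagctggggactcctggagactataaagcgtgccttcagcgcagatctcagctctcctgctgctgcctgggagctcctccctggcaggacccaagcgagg
Cartpt, GRCm38.p6 chr13:99900634-99900933, minus strand: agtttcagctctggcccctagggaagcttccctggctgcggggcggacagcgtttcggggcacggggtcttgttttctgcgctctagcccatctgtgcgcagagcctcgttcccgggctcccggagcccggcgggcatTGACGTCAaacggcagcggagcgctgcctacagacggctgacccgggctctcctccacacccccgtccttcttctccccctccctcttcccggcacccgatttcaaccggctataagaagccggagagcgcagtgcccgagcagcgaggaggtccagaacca
Sst, GRCm38.p6 chr16:23890795-23891094, minus strand: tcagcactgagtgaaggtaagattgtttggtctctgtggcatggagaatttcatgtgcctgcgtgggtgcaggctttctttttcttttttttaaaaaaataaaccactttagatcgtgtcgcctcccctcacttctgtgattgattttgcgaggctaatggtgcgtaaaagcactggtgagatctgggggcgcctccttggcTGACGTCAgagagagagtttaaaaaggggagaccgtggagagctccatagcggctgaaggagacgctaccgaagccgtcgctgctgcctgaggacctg
The full CRE is thus present in Cartpt, with lower values in SNL, and in Sst and Sstr2, whose groups overlapped. A match in this window is a description of the letters and not a site of binding.

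Genes that make, store and break down these peptides were read from the same fit. Of 12 genes of peptide processing and storage, 11 were tested and 0 passed at adjusted p under 0.05 in limma, with 0 also at unadjusted p under 0.05, a median of 0.093 and a range of -0.19 to 0.30. The smallest p belonged to Pcsk1n, an inhibitor of a prohormone convertase, with a difference of 0.30 ± 0.13, and next came Pam, which amidates peptides such as substance P, with -0.14 ± 0.10. Of 9 peptide-degrading enzymes 0 passed, and 1 had an unadjusted p under 0.05. That was Nln, the peptidase neurolysin, with a difference of 0.45 ± 0.11 (adjusted p = 0.310 in limma), whose other probe gave 0.26. Dpp4, a dipeptidyl peptidase of the cell surface, had a difference of -0.30 ± 0.12, and the list's median was -0.14. Without sham replicate 1 the processing list's median was -0.019, and without SNL replicate 1 that of the degradation list was -0.037.

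Below the receptors, 16 genes of G protein signalling gave a median of 0.031, with 0 called, 1 higher and 1 lower at unadjusted p under 0.05. The lower one was Kcnj3, a subunit of the potassium channels that receptors such as Sstr2 open, at -3.44 and -3.44 in SNL, against -2.82 and -2.81 in sham. Its difference was -0.63 ± 0.088 (adjusted p = 0.164), and both of its probes gave a like value, -0.64 and -0.63. The higher one was Itpr1, a calcium release channel, with a difference of 0.30 ± 0.097 (adjusted p = 0.385), whose other probe gave -0.12. By distance over the 4 arrays between values centred on each gene's mean, the gene most like Cartpt among 185 genes of the other lists was also Kcnj3, at a distance of 0.12. Next were Hoxd11, a Hox gene of lumbar level with a difference of -0.52, at 0.14, and Hrh1, a histamine receptor, at 0.15. Cartpt varied mostly between the groups, so a short distance to it largely restates a like difference between SNL and sham.

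Of 16 genes of the itch circuit 14 were tested and 0 passed in limma, with 2 higher and 2 lower at unadjusted p under 0.05 and a median of 0.050. Osmr, a subunit of the receptors for oncostatin M and interleukin-31, was at -0.11 and -0.084 in SNL, against -0.66 and -1.08 in sham, with the SNL mice higher. Its difference was 0.77 ± 0.18 (adjusted p = 0.279). Hrh1 was at -0.31 and -0.28 in SNL, against 0.013 and 0.12 in sham, with the SNL mice lower, a difference of -0.36 ± 0.097 (adjusted p = 0.327). Mrgpra3 and Mrgprd, receptors of itch afferents, were too dim to enter the fit.

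Markers of excitatory and of inhibitory dorsal horn neurons were compared in the same fit. Of 16 excitatory dorsal horn genes 0 passed, with 1 higher at unadjusted p under 0.05 and a median of 0.029. That was the peptide gene Nts, with a difference of 0.69 ± 0.17 (adjusted p = 0.293). The list's summed level was 28.4 and 28.0 in SNL, against 25.5 and 28.2 in sham. Of 16 inhibitory dorsal horn genes 1 passed, the peptide gene Gal, which rose by 2.92 ± 0.14 (adjusted p = 0.0475), and Npy had a difference of 1.94 ± 0.22 (adjusted p = 0.127). The median of that list was 0.13, or -0.022 without sham replicate 1, and its summed level was 59.9 and 53.3 in SNL, against 34.5 and 38.8 in sham. Gal and Npy carried most of that gap: the other 14 genes summed to 37.6 and 34.4 in SNL, against 30.9 and 34.4 in sham. All genes of both lists were well above background in both groups, and the part of neuronal makeup in the lower values of Tacr1, Tacr3 and Cartpt was not tested.

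Markers of other cells were read in the same way. Cholinergic neuron genes had a median of -0.54 over 12 members, of which Prph and Nos1 also stand in other lists. Of the 12, 10 had a difference below 0, and 7 were lower and 0 higher at unadjusted p under 0.05. At adjusted p under 0.05, 2 were lower. Chodl, a marker of fast motor neurons, was at -2.73 and -2.79 in SNL, against 1.18 and 0.97 in sham, 14.3-fold lower (adjusted p = 0.0371 in limma). Mnx1, a motor neuron transcription factor, was not well above background in SNL (adjusted p = 0.0402 in limma). Its mean was at least 15.6-fold lower there, counted from the dimmest signals well above background and without the spread between mice. The summed level of the 12 genes was 23.5 and 20.8 in SNL, against 35.1 and 32.2 in sham. That is the direction of Cartpt, Tacr1 and Tacr3, and its part in those values was not tested. Sensory ganglion genes had a median of 0.079 over 10 tested of 12, with 0 called and 1 lower at unadjusted p under 0.05. That was Isl2, which motor neurons also express, with a difference of -1.27 ± 0.12 (adjusted p = 0.0967). The sensory list's summed level was 18.7 and 17.1 in SNL, against 19.4 and 17.6 in sham. Its brightest gene was Prph, which also stands in the cholinergic list, so the sum is no measure of sensory neurons alone. Microglia genes had a median of 0.68 over 12, with 0 called and 9 higher at unadjusted p under 0.05, led by C1qc with 1.61 ± 0.11 (adjusted p = 0.0742). Their summed level was 68.0 and 58.2 in SNL, against 39.7 and 40.5 in sham. Medians were 0.12 for pan-neuronal genes, 0.059 for astrocytes, 0.043 for oligodendrocytes and precursors, 1.70 for Schwann cells and roots, -0.20 for vessels and meninges and 0.21 for blood cells. In each of these 6 lists 0 genes were called, and 5 genes in all had an unadjusted p under 0.05: Snap25, Pdgfra, Mobp and Cd3e higher and Rgs5 lower. Without sham replicate 1 the median was 0.21 for vessels and -0.41 for blood cells, so both signs turned. Without sham replicate 2 it was 0.70 for blood cells, and the Schwann cell median was -0.15.

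**Figure D4:**
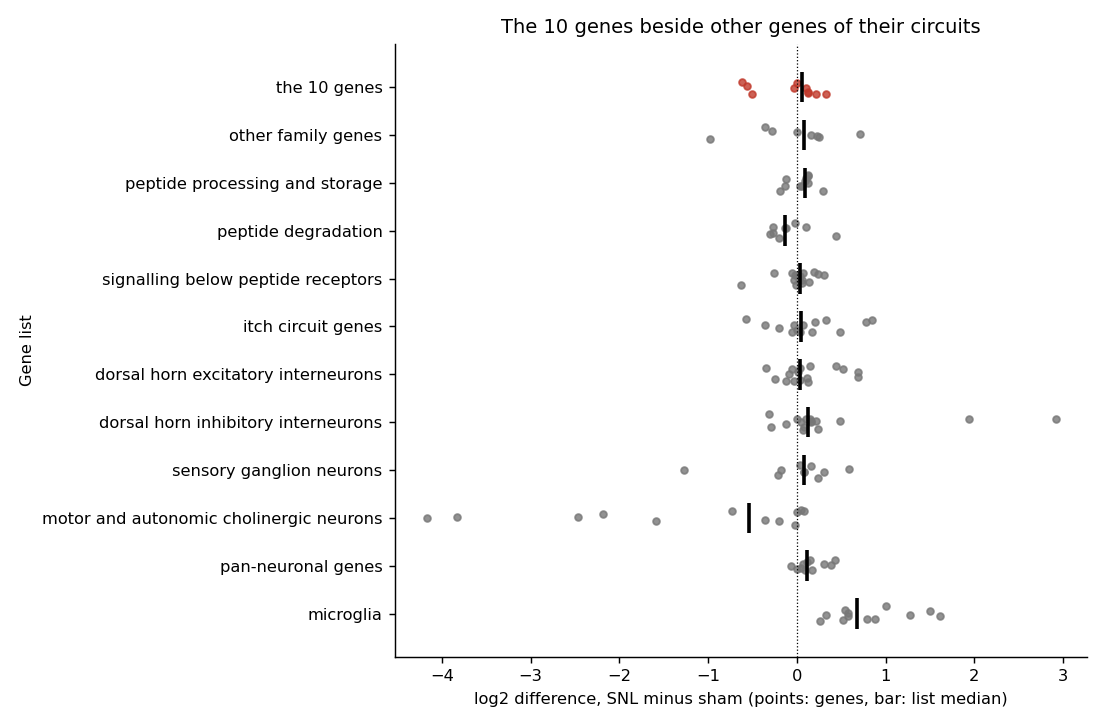
Difference between SNL and sham on the log2 scale (x axis) for every tested gene (points) of the 10 genes (red) and of 11 further lists (grey), with each list's median (bars). The median of the 10 genes is 0.056, while cholinergic neuron genes have a median of -0.54 and microglia genes of 0.68.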

How the data were processed

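Per the labels' protocols, Cy3-labelled RNA of 4 mice was hybridised to 1-colour Agilent arrays, 1 array a mouse. The deposited scanner files hold spot intensity, which per the file headers is background-subtracted, with a surrogate for dim spots (Agilent Feature Extraction 10.7.3.1 per the file headers, 10.7.1.1 per the submitters' processing notes). The array is design 028005 with probe positions on mm9. The authors' deposited table of log2 values was an alternative: its columns correlated with the scanner values at r rounding to 1 and lie on the same log2 scale and direction, with no centring per gene. They are offset by a constant near the 75th percentile, and the spots that set it are unknown. Its column medians were -3.48 and -3.33 for SNL and -3.45 and -3.52 for sham.

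For the main values, the 75th percentile of an array (59305 spots, controls excluded) was subtracted from its processed signal after taking log2. Outlier spots were left out and spots of a probe averaged. Probes entered that were well above background on at least 2 of 4 arrays and kept an unflagged spot on every array. The brightest of them stood for each gene. Over all probes and arrays, 877 values had every spot flagged. Of 55681 probes, 26762 took their symbol by accession, 3819 by current symbol and 639 by synonym in the RefSeq table, and 24461 kept the file's name. Limma 3.58.1 in R 4.3.3 (lmFit, eBayes, no covariate, 3.66 total degrees of freedom) was fitted over all genes with Benjamini-Hochberg adjustment, and the script was tested on simulated data. The number of arrays limits the precision, with a median SE of 0.13.

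The members and gene lists were chosen with earlier results of these data known. Beside the 10 genes with all their probes, the text names the 2 genes with the smallest p of a list and the 3 nearest to the member with the smallest p, of which 1 gene is not reported here. Other family genes, and genes named as not tested, were named after their values were seen. Promoters came from a RefSeq table of GRCm38.p6 and were not set against the mm9 probe positions.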

Additional observations from a re-analysis of the deposited data

How the results depend on the processing

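Over all genes, limma called 47 higher and 3 lower. The higher count was 118 with normexp correction, 11 with quantile normalization, 27 with the 75th percentile taken over probes above background on all 4 arrays, 1143 when dim probes were kept and 436 when limma fitted a variance trend robustly. The lower count was 14 with normexp correction, 0 with quantile normalization (2401 at unadjusted p under 0.05), 88 with no filter, 5 with probes above background on all 4 arrays and 123 with a variance trend. The cause of these shifts was not tested. With the replicate number as a block, 0 genes were called in each direction, with 1669 higher and 1155 lower at unadjusted p under 0.05. Deviations of same-numbered mice correlated at -0.027 over all genes, and the labels tie the numbers to nothing shared. In the file headers, same-numbered arrays have the same second number of position on the slide. The block is therefore also a block for that position number, while the labels do not pair the mice. Without any 1 of the 4 mice 0 genes were called in each direction, in fits with fewer samples where the lone mouse is assumed to vary like the other group, with 1253 to 2743 higher and 726 to 2321 lower at unadjusted p under 0.05. Of the 10 genes, 1, Cartpt, was called with a variance trend and robust estimation, and 0 under the other 12 alternatives. At unadjusted p under 0.05, Cartpt was lower in all 13, Tacr1 in 11 and Tacr3 in 6, with Tacr1 missing without sham replicate 1 or 2.

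Signs turned for 5 of the 10 genes. With 1 mouse left out, Tac2 ranged from -0.077 to 0.33, Grpr from -0.32 to 0.25, Nmb from -0.039 to 0.25, Sst from -0.040 to 0.30 and Sstr2 from -0.24 to 0.25. Without sham replicate 1, Tac2 was at -0.077, Nmb at -0.039, Sst at -0.040 and Sstr2 at -0.24. With normexp correction, Tac2 was at -0.12 and Sstr2 at -0.21. Sstr2 was also at -0.10 with quantile normalization, -0.0091 with the other percentile and -0.016 without SNL replicate 2. Grpr was at 0.25 without SNL replicate 1 and at 0.079 without sham replicate 2. Of 221 recomputed medians of the 17 other lists, 29 moved by more than the SD between mice. That SD was each list's own, from 0.013 for peptide degradation to 2.87 for Schwann cells and roots, so the count depends on it. The Schwann cell median, 1.70 as reported and -0.15 without sham replicate 2, does not count as moved. A block for slide or scan was not run, as there was 1 of each.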
